A study of Mus musculus with 24 samples.

Results

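The 10 neuroectoderm genes described here are Pax6, Sox1, Zic1, Hes5, Tubb3, Map2, Nes, Irx3, Sox9 and Trim67, taken by symbol from the 16617 genes of a mouse embryonic stem cell expression table. All 10 were found. RNA was measured by sequencing the 3′ ends of transcripts in 4 cell lines and 2 states, with 3 independently cultured samples per group and 24 in all, per the labels. MLL3 and MLL4 are the histone methyltransferases encoded by Kmt2c and Kmt2d. The MLL3KO_MLL4KO line (called KO here) lacks both, and the MLL3KO_MLL4fl line (floxed) lacks MLL3 and carries floxed MLL4. The MLL3CD_MLL4CD line (CD) carries catalytic-dead forms of both, and the WT line has neither change. WT and CD cells are of the mouse line R1 per the labels, which name no parent line for KO and floxed cells. Naive cells were kept in LIF with inhibitors, and formative cells were taken 63 h after withdrawal of both. The floxed line already lacks MLL3, so KO against floxed cells bears on MLL4 in cells without MLL3. Each genotype is a line of its own, and differences between lines other than the named alleles cannot be told apart from the genotype.

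Naive pluripotency is the ground state held by LIF and inhibitors, and on their withdrawal cells pass to a formative state that is ready to enter the germ layers. Neuroectoderm is the layer from which brain and spinal cord arise, and its first genes are switched on at low levels as naive pluripotency is left. MLL3 and MLL4 place the H3 lysine 4 monomethyl mark at enhancers and also recruit other activators. Knockout takes away the protein, while catalytic-dead forms are meant to take away its enzyme activity. Below, KO is set against floxed cells and CD against WT cells, so these comparisons differ in reference line and in the alleles changed. Of the 10 genes, SOX1, PAX6, ZIC1, IRX3 and SOX9 are transcription factors of the neural plate and its borders, and HES5 is a repressor that Notch signalling induces in neural progenitors. NES (nestin), TUBB3 and MAP2 are cytoskeletal proteins of progenitors and neurons, and TRIM67 is a ubiquitin ligase of the tripartite motif family found in the nervous system.

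The upstream promoter sequences of 3 genes are shown because in formative cells Trim67 and Hes5 were the genes lower in KO than in floxed cells past the test, and Zic1 was the gene with the largest difference upward. Each is the 250 bases before the RefSeq start in GRCm38.p6, read 5′ to 3′ on the gene's strand, with CG dinucleotides in capitals. The windows are chr8:124792769-124793018 on the plus strand for Trim67, chr4:154960673-154960922 on the plus strand for Hes5 and chr9:91365769-91366018 on the minus strand for Zic1.
Trim67: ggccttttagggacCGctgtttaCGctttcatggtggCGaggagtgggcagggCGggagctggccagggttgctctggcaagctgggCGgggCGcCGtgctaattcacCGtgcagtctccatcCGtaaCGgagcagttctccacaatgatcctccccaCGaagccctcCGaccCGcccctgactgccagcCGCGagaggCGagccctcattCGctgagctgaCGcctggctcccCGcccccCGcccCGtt
Hes5: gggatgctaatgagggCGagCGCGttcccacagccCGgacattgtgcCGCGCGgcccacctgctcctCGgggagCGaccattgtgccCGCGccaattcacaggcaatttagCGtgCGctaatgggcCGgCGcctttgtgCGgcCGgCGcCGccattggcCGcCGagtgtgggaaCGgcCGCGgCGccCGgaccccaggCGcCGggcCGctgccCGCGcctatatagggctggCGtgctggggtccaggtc
Zic1: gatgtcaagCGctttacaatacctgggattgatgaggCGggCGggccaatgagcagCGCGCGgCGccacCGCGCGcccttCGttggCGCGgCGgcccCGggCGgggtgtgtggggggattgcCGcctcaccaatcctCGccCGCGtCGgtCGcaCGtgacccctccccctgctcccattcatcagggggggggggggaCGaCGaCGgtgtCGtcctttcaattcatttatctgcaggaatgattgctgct

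RefSeq windows were matched for 9 of the 10 genes, Sox9 being the other. The Trim67 window holds 21 CG dinucleotides, the Hes5 window 32 and the Zic1 window 27, against a median of 6 over 32851 mouse promoter windows. Among the other genes, Map2 had 34, Sox1 29, Tubb3 21, both Pax6 windows and the Nes window 15, and Irx3 13, so all 9 lie above that median. The RBPJ motif TGGGAA (RBPJ is the DNA-binding partner of Notch) was searched on both strands and occurred in the Hes5 and Irx3 windows and in 21.6% of all windows. The SOX motif ACAATG was found in the Hes5, Tubb3 and Trim67 windows and in 10.7% of all, and ACAAAG in the Hes5 window and in the second Pax6 window and in 16.5% of all. Neither the octamer ATGCAAAT (1.6% of all windows) nor TATAAA (12.4%) occurred in a window of these genes.

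In GRCm38 the genes lie at chr2:105668900-105697364 (Pax6, plus strand), chr8:12395295-12400126 (Sox1, plus), chr9:91358058-91365810 (Zic1, minus), chr4:154960923-154962371 (Hes5, plus), chr8:123411424-123422015 (Tubb3, plus), chr1:66175273-66442583 (Map2, plus), chr3:87971078-87980451 (Nes, plus), chr8:91798525-91802067 (Irx3, minus), chr11:112782224-112787760 (Sox9, plus) and chr8:124793092-124834713 (Trim67, plus). All are protein-coding. Gene models on the same strand overlap Sox1 (Sox1ot and a miRNA), Tubb3 (Gm20388), Map2 (a snoRNA and a snRNA) and Trim67 (Gm16163), and models on the other strand overlap Zic1 (Zic4), Irx3 (Irx3os), Hes5, Pax6 and Map2. Whether strand was used in counting is not given here, so reads of such neighbours could be counted with the genes named.

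The deposited table gives 1 mean per group. The counts of 23 libraries, with 4808564 to 15425959 counts each, were worked back from these means, and within a group they bear the letters a, b and c from the deepest to the shallowest. The naive WT mean averaged 2 libraries, and the formative KO mean averaged 4, of which 1 was formative CD library c. That library was taken out of the KO group, and results resting on the KO formative mean are also given as deposited where that changed a call or moved a called value by over 1.5 times. Summed markers of pluripotent cells (Pou5f1, Sox2, Nanog, Utf1 and Lin28a) ran from 768 to 1000 CPM (counts scaled to the size of the library) over the 8 groups, although Pou5f1 itself was listed at 5.58 to 9.54 CPM. Naive markers summed to 293 to 506 CPM in formative groups and 1730 to 2280 CPM in naive groups, and formative markers to 1590 to 2520 CPM in formative groups and 103 to 202 CPM in naive groups. Kmt2c stood at 22.0 CPM in naive KO, 23.4 in naive floxed, 67.4 in naive CD and 48.8 in naive WT cells, and Kmt2d at 17.6 CPM in naive KO against 28.8 in naive floxed cells. Tags at the 3′ end do not test a deletion elsewhere in a gene.

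**Figure D1:**
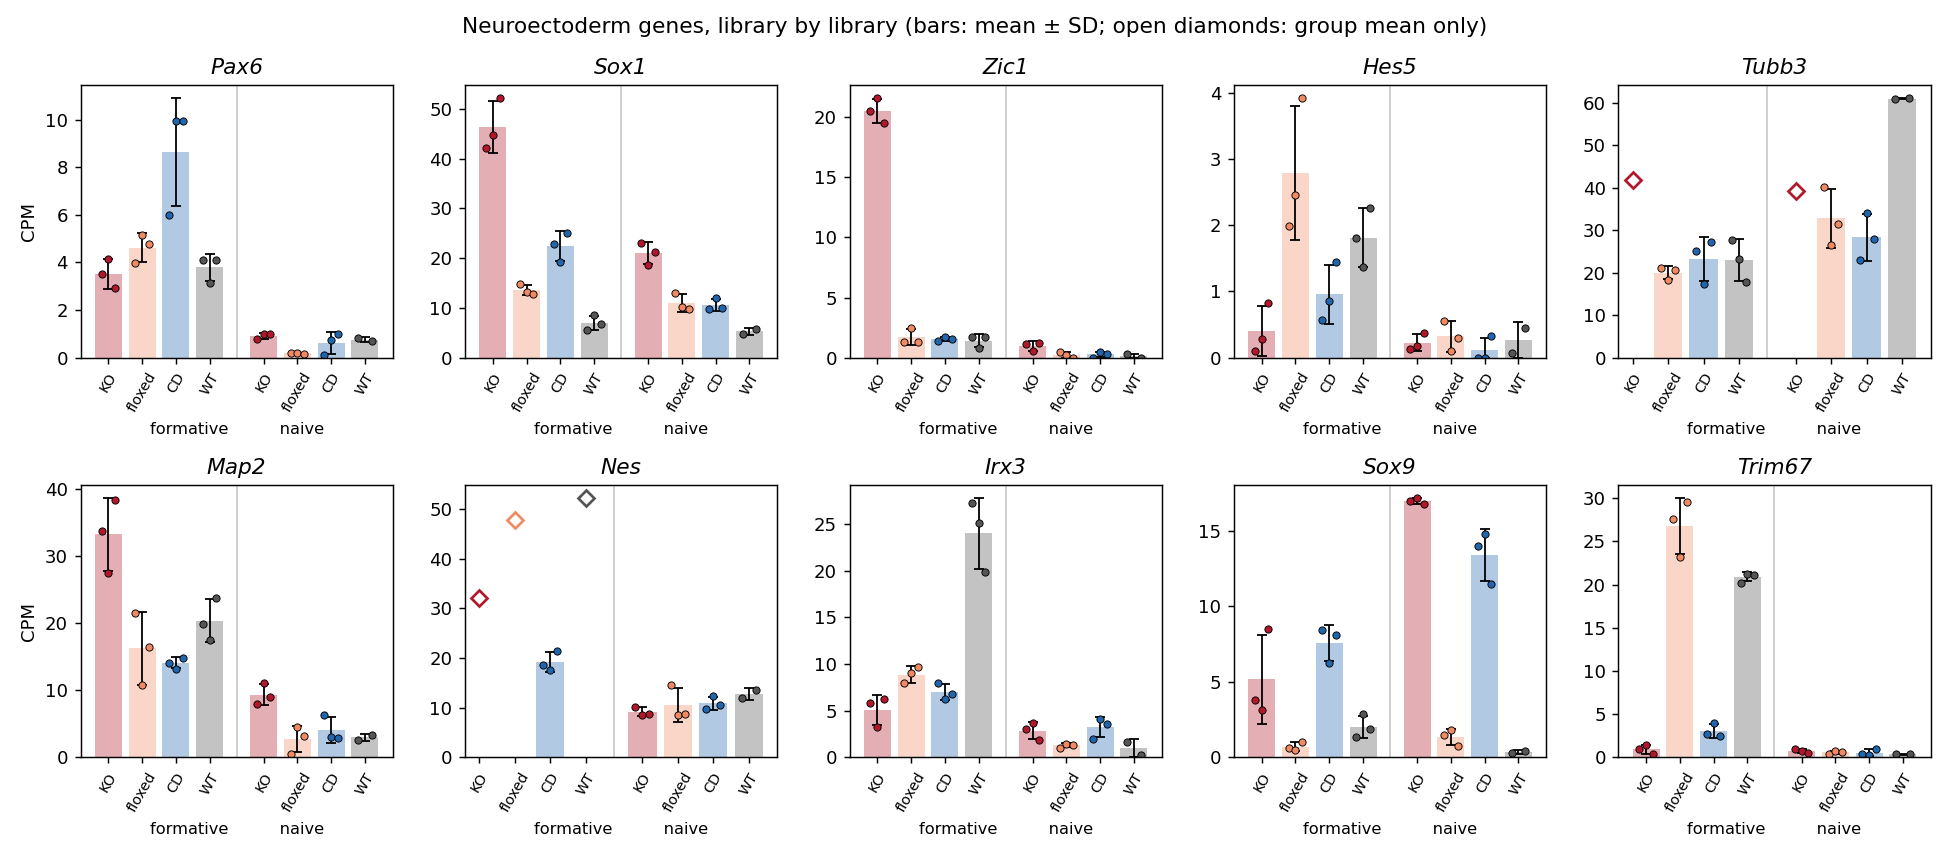
Expression of the 10 genes in CPM (vertical axes, a scale of its own for each gene) in formative cells (left of the grey line) and naive cells (right) of the KO, floxed, CD and WT lines; points are libraries, bars their mean and whiskers the SD, and open diamonds are group means whose libraries could not be worked out. Trim67 stands at 0.416 to 1.43 CPM in formative KO cells against 23.2 to 29.6 CPM in formative floxed cells, and Zic1 at 19.5 to 21.6 against 1.30 to 2.46 CPM.

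Sox1, an early marker of neural commitment, was higher in KO than in floxed cells and higher in CD than in WT cells, in both states. Formative libraries had 42.1, 44.8 and 52.2 CPM in KO, 14.7, 13.2 and 12.8 CPM in floxed, 22.8, 19.2 and 25.1 CPM in CD and 5.62, 8.54 and 6.78 CPM in WT cells. Naive libraries had 23.0, 18.7 and 21.3 CPM in KO, 13, 10.2 and 9.82 CPM in floxed, 9.73, 12.0 and 10.0 CPM in CD and 4.78 and 5.77 CPM in WT cells. In formative cells the 4 lines did not overlap and ran in the order KO, CD, floxed and WT, while naive floxed and CD cells overlapped. Differences are given on the log2 scale, on which 2 counts, adjusted to depth, were first added to each value, which understates changes of low genes, as value ± SE with a Benjamini-Hochberg adjusted p over all genes tested. Rose and fell are used at an adjusted p under 0.05. In bulk RNA, fewer cells of a type and less RNA per cell cannot be told apart. Sox1 rose by 1.76 ± 0.16 in formative KO against floxed cells (3.38-fold, adjusted p = 1.67e-08) and by 0.92 ± 0.18 in the naive state (adjusted p = 0.000519). The formative KO counts rest on the wider limit of the count search (0.441 matches expected by chance).
In CD against WT cells Sox1 rose by 1.66 ± 0.20 in the formative state (3.17-fold, adjusted p = 3.67e-06) and by 0.98 ± 0.27 in the naive state (adjusted p = 0.0181), the naive call being lost without naive WT library a or CD library b (adjusted p 0.068 to 0.201). It also rose in floxed against WT cells, by 0.96 ± 0.21 in the formative state (adjusted p = 0.00277) and by 1.03 ± 0.26 in the naive state (adjusted p = 0.0142; 0.065 to 0.218 without naive WT library a or floxed library a). The transition brought a rise of 1.13 ± 0.15 in the KO line (adjusted p = 2.73e-06) and 1.06 ± 0.20 in the CD line (adjusted p = 0.000151), with 0.30 ± 0.19 in the floxed line (adjusted p = 0.239) and 0.38 ± 0.27 in the WT line (adjusted p = 0.314). KO minus floxed was 0.83 ± 0.25 (adjusted p = 0.0319), a call lost under 6 of the 12 omissions of a library (naive floxed a, formative floxed b and c, naive KO b and c, formative KO c; adjusted p 0.0534 to 0.115). The KO column as deposited ended it too (0.61, adjusted p = 0.277). So did size factors (0.72, adjusted p = 0.0781) and leaving out the weights (adjusted p = 0.053). CD minus WT was 0.69 ± 0.33 (adjusted p = 0.294).

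Pax6, a paired-box factor of eye and forebrain, rose on the transition in all 4 lines, and its KO and floxed libraries overlapped once formative. Formative libraries had 3.51, 4.14 and 2.91 CPM in KO, 3.97, 5.17 and 4.76 CPM in floxed, 6.01, 9.93 and 9.97 CPM in CD and 4.11, 3.14 and 4.12 CPM in WT cells. Naive libraries had 0.778, 0.976 and 0.990 CPM in KO, 0.186, 0.192 and 0.151 CPM in floxed, 0.112, 0.761 and 0.984 CPM in CD and 0.843 and 0.679 CPM in WT cells. Formative CD libraries lay above all others, and the naive floxed libraries, with 5 counts in all, lay below naive KO and WT. The rise was 1.73 ± 0.42 in KO (adjusted p = 0.00238), 3.66 ± 0.40 in floxed (adjusted p = 1.03e-07; 4.36 at a prior count of 0.5), 3.60 ± 0.43 in CD (adjusted p = 4.22e-07; 3.01 without naive CD library a) and 2.04 ± 0.48 in WT cells (adjusted p = 0.00149).
KO minus floxed was -1.93 ± 0.58 (adjusted p = 0.0346), a call kept only without formative floxed library a or formative KO library b and lost without any of the other 10 libraries (adjusted p 0.0522 to 0.0819), at a prior count of 0.5 (adjusted p = 0.0819) and with the KO column as deposited (-1.57, adjusted p = 0.179). Naive KO cells stood 1.55 ± 0.49 above floxed cells (adjusted p = 0.0271), a call lost without any 1 of the 6 libraries (adjusted p 0.0564 to 0.0812) and at a prior count of 0.5 (adjusted p = 0.0744). In formative cells KO minus floxed was -0.38 ± 0.31 (adjusted p = 0.441, 95% interval -1.01 to 0.25). Pax6 rose by 1.12 ± 0.26 in formative CD against WT cells (2.18-fold, adjusted p = 0.00609; 0.0979 without weights), and the naive difference was -0.43 ± 0.59 (adjusted p = 0.71).

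Zic1, a zinc finger factor of the dorsal neural tube, was highest in formative KO cells. Formative libraries had 20.5, 21.6 and 19.5 CPM in KO, 1.30, 2.46 and 1.31 CPM in floxed, 1.36, 1.70 and 1.59 CPM in CD and 1.73, 0.785 and 1.73 CPM in WT cells. Naive libraries had 1.17, 0.532 and 1.24 CPM in KO, 0.466, 0.192 and 0 CPM in floxed, 0, 0.456 and 0.328 CPM in CD and 0.281 and 0 CPM in WT cells. The 3 formative KO libraries stood above every other library, and the formative floxed, CD and WT libraries overlapped one another. Against floxed cells Zic1 rose by 3.51 ± 0.33 in formative KO cells (11.4-fold, adjusted p = 1.64e-08) and by 1.58 ± 0.55 in naive KO cells (adjusted p = 0.0448). The naive call was lost without floxed library b or c or KO library a or c (adjusted p 0.0854 to 0.255) and at a prior count of 0.5 (adjusted p = 0.0636). As deposited, with the CD library averaged in, the formative KO mean was 11.2 CPM, against 20.7 CPM from its own libraries. As deposited the formative difference was 2.62 (adjusted p = 0.0324) and the KO transition 3.31 (adjusted p = 0.00808).
On the transition Zic1 rose by 4.19 ± 0.38 in the KO line (adjusted p = 6.4e-09), 2.26 ± 0.51 in the floxed line (adjusted p = 0.000984), 2.07 ± 0.50 in the CD line (adjusted p = 0.00256; 0.0504 without naive CD library a) and 2.29 ± 0.59 in the WT line (adjusted p = 0.00359). The WT value was 1.67 without naive WT library b (adjusted p = 0.144) and 2.92 without library a. At a prior count of 0.5 the floxed, CD and WT values were 3.16, 2.90 and 3.41, all still past the test. KO minus floxed was 1.93 ± 0.64 and did not pass (adjusted p = 0.0586; 0.0371 and 0.042 without naive floxed library c and formative floxed library b). Over all alternatives this difference ran from 1.04 to 2.37, with adjusted p up to 0.775. CD and WT cells differed by 0.18 ± 0.46 in the formative state (adjusted p = 0.864) and by 0.40 ± 0.63 in the naive state (adjusted p = 0.756).

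Irx3, an Iroquois factor that patterns the neural tube, was highest in formative WT cells and lower in the other 3 lines. Formative libraries had 5.81, 3.28 and 6.24 CPM in KO, 7.94, 8.98 and 9.70 CPM in floxed, 7.94, 6.24 and 6.79 CPM in CD and 27.2, 25.1 and 19.8 CPM in WT cells. Naive libraries had 3.05, 3.64 and 1.86 CPM in KO, 1.02, 1.44 and 1.36 CPM in floxed, 2.01, 4.11 and 3.61 CPM in CD and 1.69 and 0.226 CPM in WT cells. The WT libraries were above all others in the formative state, and the 2 naive WT libraries lay apart, with 24 and 2 counts. Irx3 fell by 1.75 ± 0.24 in formative CD against WT cells (3.35-fold, adjusted p = 2.1e-05) and by 1.41 ± 0.22 in formative floxed against WT cells (2.65-fold, adjusted p = 7.58e-05).
KO and floxed libraries of Irx3 overlapped in neither state, with a naive difference of 1.01 ± 0.46 (adjusted p = 0.145) and a formative one of -0.82 ± 0.30 (adjusted p = 0.0641; 0.0471 with size factors). Naive CD cells stood 1.88 ± 0.54 above WT cells (adjusted p = 0.0265), which became 0.81 (adjusted p = 0.41) without naive WT library b and 2.94 without library a. The call was also lost without CD library b or c and with the groups of the comparison alone (adjusted p = 0.0561). The transition was 0.80 ± 0.36 in KO (adjusted p = 0.106; 0.0392 without formative KO library b and 0.0483 with the KO column as deposited), while Irx3 rose by 2.62 ± 0.42 in floxed (adjusted p = 1.94e-05), 1.11 ± 0.36 in CD (adjusted p = 0.0212) and 4.73 ± 0.47 in WT cells (adjusted p = 2.3e-08). The WT value was 3.67 without naive WT library b and 5.80 without library a. The CD call was lost without naive CD library a or formative CD library a (adjusted p 0.0719 to 0.154). CD minus WT was -3.62 ± 0.59 (adjusted p = 0.000712). Its call was kept in each omission of a library, but its value was -2.56 without naive WT library b and -4.69 without library a. KO minus floxed was -1.83 ± 0.55 (adjusted p = 0.0367), lost in 8 of 12 omissions (each naive floxed library, formative floxed c, naive KO a and b, formative KO a and b; adjusted p 0.0516 to 0.0975), at a prior count of 0.5 (adjusted p = 0.0585) and with the KO column as deposited (-1.71, adjusted p = 0.0582).

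Sox9, a factor of neural stem cells, crest and cartilage, was high in naive KO and CD cells. Formative libraries had 3.81, 3.14 and 8.53 CPM in KO, 0.611, 0.508 and 1.03 CPM in floxed, 8.44, 6.24 and 8.09 CPM in CD and 1.37, 2.85 and 1.86 CPM in WT cells. Naive libraries had 17.0, 17.2 and 16.8 CPM in KO, 1.49, 1.83 and 0.755 CPM in floxed, 14, 14.8 and 11.5 CPM in CD and 0.281 and 0.453 CPM in WT cells. KO did not overlap with floxed, nor CD with WT, in either state. In naive cells Sox9 rose by 3.53 ± 0.36 in KO against floxed (11.6-fold, adjusted p = 8.59e-08) and by 4.58 ± 0.55 in CD against WT (24-fold, adjusted p = 3.95e-06). In formative cells the rises were 2.45 ± 0.45 (5.47-fold, adjusted p = 0.000325) and 1.85 ± 0.33 (3.60-fold, adjusted p = 0.00066). Floxed and WT libraries overlapped in neither state. Floxed minus WT was 1.40 ± 0.62 in naive cells (adjusted p = 0.236; 0.0413 without weights). In formative cells floxed minus WT was -1.26 ± 0.48 (adjusted p = 0.0985; 0.03 without weights).
On the transition Sox9 fell by 1.81 ± 0.27 in the KO line (adjusted p = 9.49e-06) and by 0.81 ± 0.24 in the CD line (adjusted p = 0.0107; 0.0544 without formative CD library b and 0.0959 without weights), was -0.74 ± 0.51 in the floxed line (adjusted p = 0.289) and rose by 1.93 ± 0.60 in the WT line (adjusted p = 0.014). The WT rise was lost without either naive WT library (adjusted p 0.0559 to 0.148). CD minus WT was -2.73 ± 0.64 (adjusted p = 0.0158). That call was lost without naive WT library a (-2.52) or b (-2.95) and at a prior count of 0.5 (-3.10, adjusted p = 0.0551). KO minus floxed was -1.08 ± 0.58 (adjusted p = 0.278). Primitive endoderm markers moved the same way in naive cells: 3 of the 6 listed were measured, and they summed to 26.2 CPM in KO against 3.15 CPM in floxed cells and to 51.5 CPM in CD against 4.20 CPM in WT cells, nearly all of it Dab2. Their part in the Sox9 result was not tested.

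Hes5, like Trim67, was lower in formative KO than in formative floxed cells, at lower counts. Unlike Trim67, it did not pass the test in formative CD against WT cells. Formative libraries had 0.10, 0.285 and 0.832 CPM in KO, 1.99, 2.46 and 3.92 CPM in floxed, 0.573, 0.851 and 1.45 CPM in CD and 1.80, 1.37 and 2.26 CPM in WT cells. Naive libraries had 0.130, 0.177 and 0.371 CPM in KO, 0.559, 0.0961 and 0.302 CPM in floxed, 0, 0 and 0.328 CPM in CD and 0.0702 and 0.453 CPM in WT cells. These are 7 counts over the 3 formative KO libraries and 97 over the 3 formative floxed ones, and the 2 groups did not overlap. Hes5 fell by 2.43 ± 0.50 in formative KO against floxed cells (5.37-fold, adjusted p = 0.00102). It rose on the transition in the floxed (2.56 ± 0.51, adjusted p = 0.000299), CD (1.97 ± 0.53, adjusted p = 0.00587) and WT lines (2.22 ± 0.62, adjusted p = 0.00642), the last being 1.59 (adjusted p = 0.189) without naive WT library a and 2.85 without library b. At a prior count of 0.5 the CD and WT rises were 3.24 and 2.88, both past the test. In the KO line the difference was 0.36 ± 0.61 (adjusted p = 0.721). The difference of the KO and floxed transitions, -2.21 ± 0.79, did not pass (adjusted p = 0.0833; 0.038 without formative KO library c). CD and WT formative cells overlapped, with a difference of -0.84 ± 0.50 (adjusted p = 0.34). The CD minus WT difference of transitions was -0.25 ± 0.81 (adjusted p = 0.915).

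Nes, the intermediate filament of neural progenitors, could be followed library by library in naive cells and in formative CD cells. Formative CD libraries had 18.7, 17.5 and 21.4 CPM. Naive libraries had 10.2, 8.52 and 8.79 CPM in KO, 14.5, 8.46 and 8.76 CPM in floxed, 9.84, 12.3 and 10.5 CPM in CD and 11.9 and 13.6 CPM in WT cells, so naive KO overlapped with naive floxed and naive CD with naive WT. Nes rose by 0.81 ± 0.22 on the CD transition (adjusted p = 0.00794). The other formative groups have means only, of 32.1 CPM in KO, 47.9 CPM in floxed and 52.3 CPM in WT cells, and as values without a test their transitions were 1.78, 2.20 and 2.01. In naive cells KO minus floxed was -0.16 ± 0.22 (adjusted p = 0.716) and CD minus WT -0.23 ± 0.25 (adjusted p = 0.626).

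Tubb3, the neuronal β-tubulin, was highest in naive WT cells, against the direction of most of the other genes. Formative libraries had 21.0, 18.2 and 20.7 CPM in floxed, 25.1, 17.4 and 27.3 CPM in CD and 27.8, 23.3 and 17.9 CPM in WT cells, and naive libraries 40.2, 26.6 and 31.4 CPM in floxed, 22.9, 34.1 and 27.9 CPM in CD and 60.9 and 61.1 CPM in WT cells. For KO cells only group means were had, 41.7 CPM formative and 39.2 CPM naive, with no test. Formative floxed, CD and WT libraries overlapped one another, and naive WT stood apart from naive floxed and CD. Tubb3 fell on the transition by 1.42 ± 0.22 in WT (adjusted p = 2.6e-05) and by 0.69 ± 0.21 in floxed cells (adjusted p = 0.0118; 0.0786 without naive floxed library a), and was -0.29 ± 0.22 in CD cells (adjusted p = 0.358). In naive cells it fell by 1.12 ± 0.23 in CD against WT (adjusted p = 0.00227) and by 0.91 ± 0.22 in floxed against WT (adjusted p = 0.0117; 0.0525 without naive WT library a). CD minus WT transitions were 1.14 ± 0.31 (adjusted p = 0.0435). The call was lost in 8 of 11 omissions of a library (adjusted p 0.0599 to 0.119), the exceptions being formative WT a, naive CD b and formative CD b. A prior count of 0.5 ended it too (adjusted p = 0.0551), as did a fit of the groups of the comparison alone (adjusted p = 0.0639).

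Map2, a dendritic microtubule protein, rose on the transition in all 4 lines. Formative libraries had 33.8, 27.6 and 38.5 CPM in KO, 21.6, 10.8 and 16.5 CPM in floxed, 14.1, 13.2 and 14.9 CPM in CD and 19.9, 17.5 and 23.8 CPM in WT cells. Naive libraries had 7.97, 11.1 and 9.03 CPM in KO, 0.559, 4.52 and 3.17 CPM in floxed, 6.26, 3.04 and 2.95 CPM in CD and 2.60 and 3.39 CPM in WT cells. KO libraries were above all other libraries of their state, and CD lay below WT in the formative state without overlap. The rise was 1.81 ± 0.28 in KO (adjusted p = 1.75e-05), 2.79 ± 0.42 in floxed (adjusted p = 8.72e-06; 1.99 without naive floxed library a), 1.82 ± 0.40 in CD (adjusted p = 0.00093) and 2.68 ± 0.45 in WT cells (adjusted p = 3.57e-05). Against floxed cells Map2 rose by 2.04 ± 0.44 in naive KO cells (4.12-fold, adjusted p = 0.00119; 1.25, adjusted p = 0.0257, without naive floxed library a) and by 1.06 ± 0.25 in formative KO cells (2.09-fold, adjusted p = 0.00427). The formative call was lost without weights (adjusted p = 0.0804) and with the KO column as deposited (0.78, adjusted p = 0.0814). CD minus WT was -0.52 ± 0.27 in formative cells (adjusted p = 0.259) and 0.35 ± 0.53 in naive cells (adjusted p = 0.748).

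Trim67 was near its naive level in formative KO cells and high in formative floxed and WT cells. In formative cells it had 1.0, 1.43 and 0.416 CPM in KO libraries a, b and c, 27.6, 23.2 and 29.6 CPM in floxed, 2.65, 3.97 and 2.46 CPM in CD and 20.2, 21.2 and 21.1 CPM in WT libraries. In naive cells the values were 0.972, 0.710 and 0.495 CPM in KO, 0.373, 0.769 and 0.604 CPM in floxed, 0.335, 0.304 and 0.984 CPM in CD and 0.421 and 0.339 CPM in WT libraries. Every naive library and every formative KO library was under 1.5 CPM, the CD formative libraries lay between, and floxed and WT formative libraries did not overlap with any other group.
On the transition from naive to formative cells Trim67 rose by 5.13 ± 0.39 in floxed cells (adjusted p = 4.88e-10), by 2.20 ± 0.44 in CD cells (adjusted p = 0.000373) and by 5.17 ± 0.48 in WT cells (adjusted p = 9.06e-09). In the KO line the difference was 0.23 ± 0.49 (adjusted p = 0.779), with a 95% interval of -0.77 to 1.24. The transitions themselves differed, by -4.89 ± 0.63 for KO minus floxed (adjusted p = 1.2e-05) and by -2.97 ± 0.65 for CD minus WT (adjusted p = 0.00955). The first held in each fit that left out a library. The second was lost without naive WT library a (-3.07) or b (-2.87) and at a prior count of 0.5 (-3.08, adjusted p = 0.0711). Within formative cells Trim67 was lower by -4.65 ± 0.37 in KO than in floxed cells, a 25.1-fold difference (adjusted p = 1.13e-09), and by -2.73 ± 0.24 in CD than in WT cells, 6.65-fold (adjusted p = 5.9e-08). In naive cells both differences were 0.24, with adjusted p of 0.818 for KO against floxed and 0.859 for CD against WT. The counts of the formative floxed libraries rest on a wider limit of the count search than first used (0.305 matches expected by chance).

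**Figure D2:**
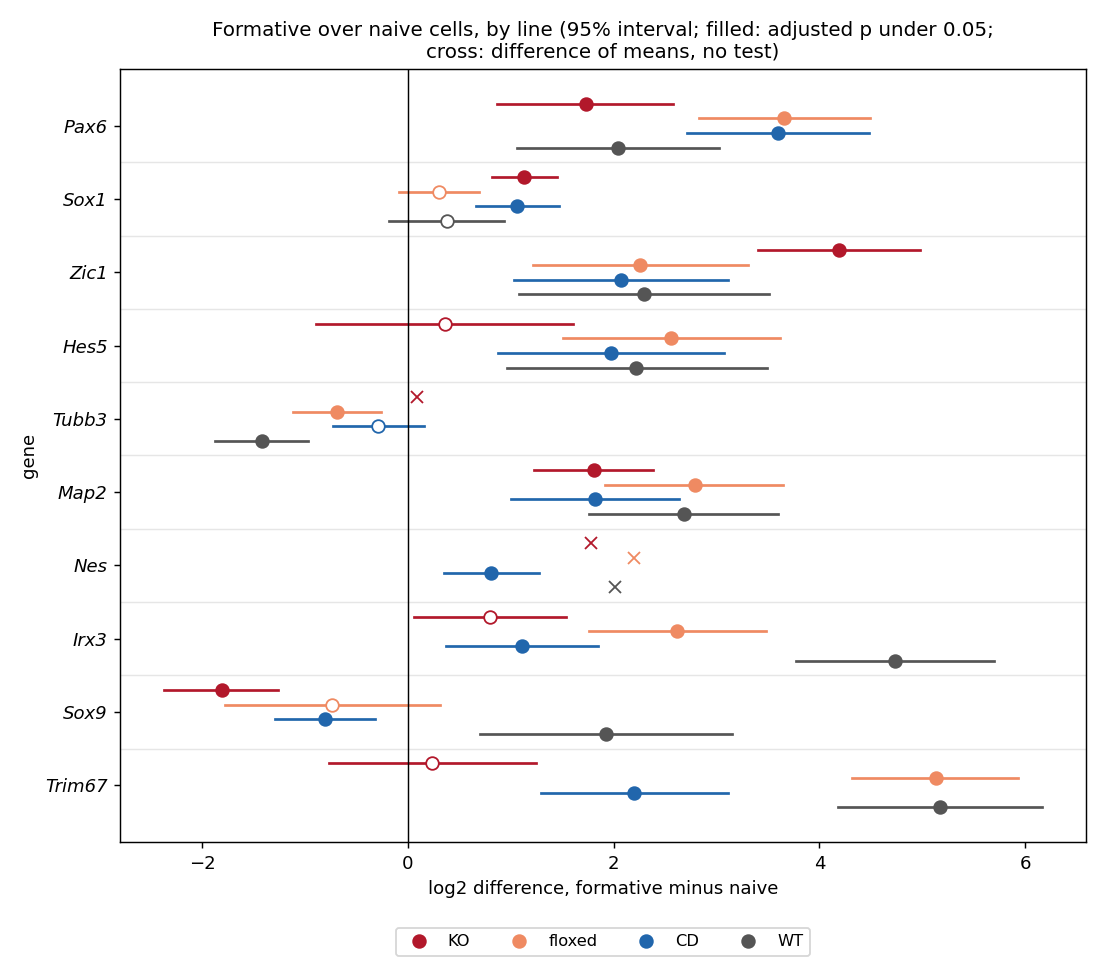
Log2 difference between formative and naive cells (horizontal axis) for each gene (vertical axis) in the KO, floxed, CD and WT lines; lines are 95% intervals, filled points have an adjusted p under 0.05, open points do not, and crosses are differences of means with no test. Trim67 lies at 0.23 in the KO line and 5.13 in the floxed line, and Zic1 at 4.19 and 2.26.

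Counted over the genes, the transition moved 5 of 8 tested genes in the KO line, against 27.1% of all genes tested. Of these 4 rose and 1 fell, against 21.4% and 5.67% of all genes. It moved 7 of 9 in the floxed line, against 33.8%, with 6 up (22.4%) and 1 down (11.4%). In the CD line 9 of 10 changed, against 29.1%, with 8 up (18.3%) and 1 down (10.8%), and in the WT line 8 of 9, against 32.1%, with 7 up (19.7%) and 1 down (12.5%). The median difference over the 10 genes was 0.97 in KO, 2.41 in floxed, 1.46 in CD and 2.13 in WT cells, beside medians over all genes of 0.19, 0.13, 0.06 and 0.14. The genes were chosen with earlier results of these data known, so these counts are a description. Shares given against all genes, here and below, are of the genes tested in that comparison. Medians over all genes include untested genes.

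Between lines, KO against floxed cells changed 6 of 8 tested genes in the formative state, against 17.4% of all genes, with 4 up (10.8%) and 2 down (6.63%). In the naive state the same pair changed 5 of 9, against 17.8%, all 5 up (8.32% up and 9.46% down over all genes). CD against WT cells changed 5 of 9 in the formative state, against 8.39%, with 3 up (4.83%) and 2 down (3.57%), and 4 of 10 in the naive state, against 10.8%, with 3 up (6.18%) and 1 down (4.63%). Floxed against WT cells changed 2 of 9 in the formative state, against 9.56%, with 1 up (4.21%) and 1 down (5.36%), and 2 of 10 in the naive state, against 5.11%, with 1 up (1.97%) and 1 down (3.14%). The KO and floxed transitions differed for 4 of 8 genes, against 8.69%, with 1 up (5.35%) and 3 down (3.34%). The CD and WT transitions differed for 4 of 9, against 3.19%, with 1 up (1.75%) and 3 down (1.44%). Transitions and line comparisons share groups of libraries, so they are not separate evidence.

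**Figure D3:**
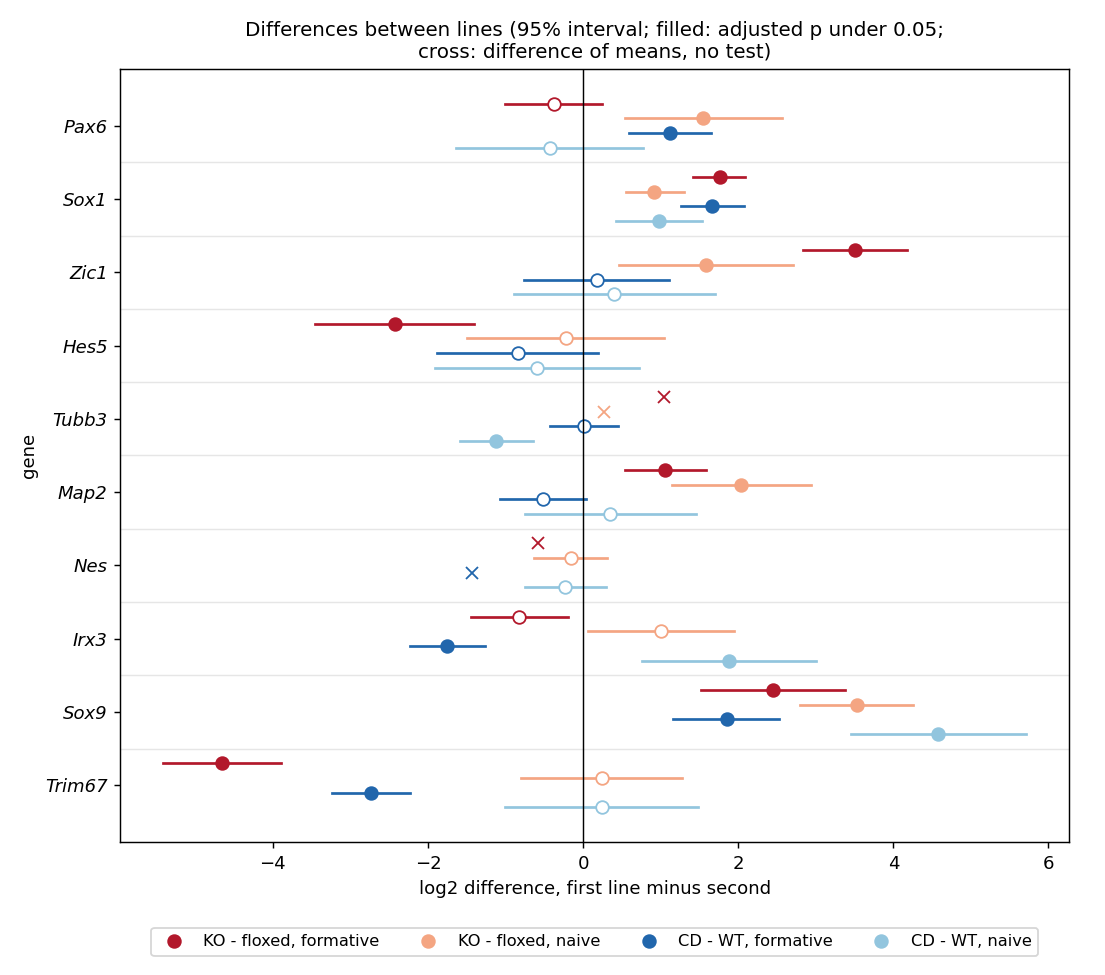
Log2 difference of KO minus floxed and CD minus WT cells (horizontal axis) for each gene (vertical axis), in formative and naive cells; lines are 95% intervals, filled points have an adjusted p under 0.05, open points do not, and crosses are differences of means with no test. Sox1 and Sox9 lie to the right of 0 in all 4 comparisons, and Trim67 lies at -4.65 and -2.73 in formative cells and at 0.24 in naive cells.

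Sox1 and Sox9 passed the test in the same direction in both line comparisons and both states. Trim67 passed, downward, in the formative state of both. Zic1 and Map2 rose in KO against floxed cells in both states, and in CD against WT cells they passed in neither, whether the 2 effects differ not having been tested. Among these calls, those of Zic1 in naive KO, Map2 in formative KO and Sox1 in naive CD cells were lost under some alternatives, as given above.

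The widest range over the 8 group means was that of Zic1, 6.04 on the log2 scale, followed by Trim67 (5.53), Sox9 (4.93), Irx3 (4.73), Pax6 (4.50), Map2 (3.85), Hes5 (3.36), Sox1 (3.09), Nes (2.48) and Tubb3 (1.6), beside a median of 1.37 over all genes. Their highest groups differ: formative KO for Zic1, Sox1 and Map2, formative floxed for Trim67 and Hes5, formative WT for Irx3 and Nes, formative CD for Pax6, naive KO for Sox9 and naive WT for Tubb3. Across the 8 group means, Pearson's r was 0.97 between Hes5 and Trim67, 0.90 between Zic1 and Map2, 0.86 between Pax6 and Map2 and -0.78 between Tubb3 and Irx3, as a description of 8 points that share the state change. Among 11131 genes whose means spanned at least 1 log2, those most like Pax6 were Pik3ip1 (r = 0.988), Orai3 (0.983) and Stc1 (0.981), those most like Sox1 were Jkamp (0.964), Tmem67 (0.962) and Gas2l3 (0.948), and those most like Zic1 were Phldb1 (0.990), Antxr2 (0.984) and Tcf12 (0.979).

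Other neural genes were followed in lists chosen by function; medians include genes without a test, for some of which the formative KO mean is approximate. Of 35 listed neural progenitor transcription factors 28 were in the table, and 8 of the 18 tested rose in formative KO against floxed cells and the other 10 did not pass, against 10.8% of all genes rising. The median of the 28 was 1.45, beside 0.07 over all genes. The midbrain-hindbrain factor En2 rose by 3.08 ± 0.44 (23.8 against 2.81 CPM, adjusted p = 1.23e-05), Meis1 by 2.71 ± 0.30 (10.8 against 1.66 CPM, adjusted p = 3.44e-07) and the forebrain factor Six3 by 2.27 ± 0.52 (2.43 against 0.505 CPM, adjusted p = 0.00295). En1, the partner of En2, stood at 149 CPM in formative KO against 1.87 CPM in floxed cells, and Gbx2, a hindbrain factor, at 48.9 against 2.91 CPM, both without a test. Sox3, a SOX1 relative of neural progenitors, stood at 9.94 against 46.9 CPM, without a test and with an approximate KO mean. Gbx2 was already present in naive cells, at 21.9 CPM in WT, 14.9 in floxed, 15.1 in CD and 4.75 in KO cells. WT and floxed cells lost most of it on the transition (-2.49 ± 0.27, to 3.89 CPM, and -2.36 ± 0.28). Formative CD cells had 28.6 CPM. Whether the higher formative Gbx2 of KO and CD cells is a neural change was not tested. In formative CD against WT cells 3 of 20 tested rose, against 4.83% of all genes rising. They were Gbx2 (2.88 ± 0.25), Meis1 (2.03 ± 0.44) and Pax3 (2.02 ± 0.64, 1.88 against 0.462 CPM, adjusted p = 0.0491). Irx5, another Iroquois factor, fell by 1.33 ± 0.33, against 3.57% falling. The median over the 28 was -0.22. How calls of list genes fare under the alternatives is not given here.

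Of 23 listed Notch pathway genes 18 were in the table, and 3 rose and 3 fell of 14 tested in formative KO against floxed cells, against 10.8% and 6.63% of all genes. Numb, which holds back Notch, rose by 1.35 ± 0.35 and the ligand gene Jag1 by 1.06 ± 0.27, while the target Hey1 fell by 1.13 ± 0.38 (adjusted p = 0.0378) and Dtx1 by 1.01 ± 0.23. Hes1, the other main Notch effector, stood at 82.4 CPM in formative KO (an approximate mean) and 111 CPM in floxed cells, without a test. The KO and floxed transitions differed for 4 of 14 tested Notch genes, 2 up and 2 down, against 5.35% and 3.34% of all genes. For the transitions KO minus floxed was 2.24 ± 0.71 for the receptor gene Notch1 (adjusted p = 0.0473) and 1.73 ± 0.52 for Numb (adjusted p = 0.0359). It was -2.38 ± 0.40 for Dtx4 (adjusted p = 0.000326) and -2.0 ± 0.59 for the glycosyltransferase gene Lfng (adjusted p = 0.0328). In naive cells Notch1 was lower in KO than in floxed cells (-2.14 ± 0.47, 0.318 against 1.4 CPM). Dtx4 (1.85 ± 0.36) and Lfng (1.48 ± 0.48) were higher there. Within formative cells KO minus floxed was 0.1 for Notch1 (adjusted p = 0.93), -0.53 for Lfng (adjusted p = 0.326) and -0.52 for Dtx4 (adjusted p = 0.039). Of 30 listed genes of neuronal differentiation 26 were in the table, and 8 rose and 1 fell of 17 tested in formative KO against floxed cells, against 10.8% and 6.63% of all genes. Those of largest difference are Rtn1 (2.38 ± 0.27), the neuroendocrine factor Insm1 (1.74 ± 0.34), the growth cone gene Gap43 (1.71 ± 0.31) and the proneural factor Neurod1 (1.5 ± 0.24). In formative CD against WT cells 2 rose and 3 fell of 20, against 4.83% and 3.57%. Dcx fell by 1.82 ± 0.55 (0.419 against 1.48 CPM, adjusted p = 0.038), the neurofilament gene Nefm by 1.77 ± 0.30 and Stmn4 by 1.14 ± 0.26, while Insm1 rose by 1.24 ± 0.35.

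Among 11 measured progenitor markers of the cytoplasm and surface, 2 of 6 tested rose in formative KO against floxed cells, N-cadherin (Cdh2) by 2.96 ± 0.45 and Ptn by 1.24 ± 0.26, against 10.8% of all genes rising. Without a test, Prom1 stood at 22.2 against 73.6 CPM and Slc1a3 at 23.9 against 44.2 CPM. Vim stood at 378 against 54.2 CPM and Lrp2 at 141 against 63.5 CPM, with approximate KO means. Of 14 measured crest genes and partners of SOX9, 5 rose and 2 fell of 14, against 10.8% and 6.63% of all genes, with Snai1 up by 1.99 ± 0.56 and Col2a1, a direct SOX9 target in cartilage, down by -1.76 ± 0.38 (2.11 against 7.17 CPM, adjusted p = 0.00148). Of the TRIM subfamily of Trim67, 2 of 5 were measured, and Trim36 rose by 3.10 ± 0.32 (13.7 against 1.59 CPM, adjusted p = 7.31e-08) in the comparison in which Trim67 fell. Naive markers summed to 506 CPM in formative KO and 386 CPM in formative floxed cells, and formative markers to 1660 and 1590 CPM. The formative sums hide opposite moves. Dnmt3b, the most abundant of the 6, stood at 691 against 1040 CPM, while the median difference of the 6 was 1.0. Mesendoderm markers (5 of 6 listed were measured) summed to 10.2 and 10.5 CPM in the same pair of groups. Fibroblast markers (4 of 7 listed) summed to 11.4 and 18.1 CPM. Of the 5 mesendoderm markers 1 rose and 1 fell, against 10.8% and 6.63% of all genes. Of the 4 fibroblast markers 2 rose and 2 fell. Primitive endoderm markers summed to 16.8 and 9.49 CPM there. In formative CD against WT cells mesendoderm markers summed to 8.06 against 33.6 CPM. Fibroblast markers summed to 25.5 against 8.92 CPM there, and primitive endoderm markers to 25.2 against 14.9 CPM. The part of these differences in the results above was not tested.

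**Figure D4:**
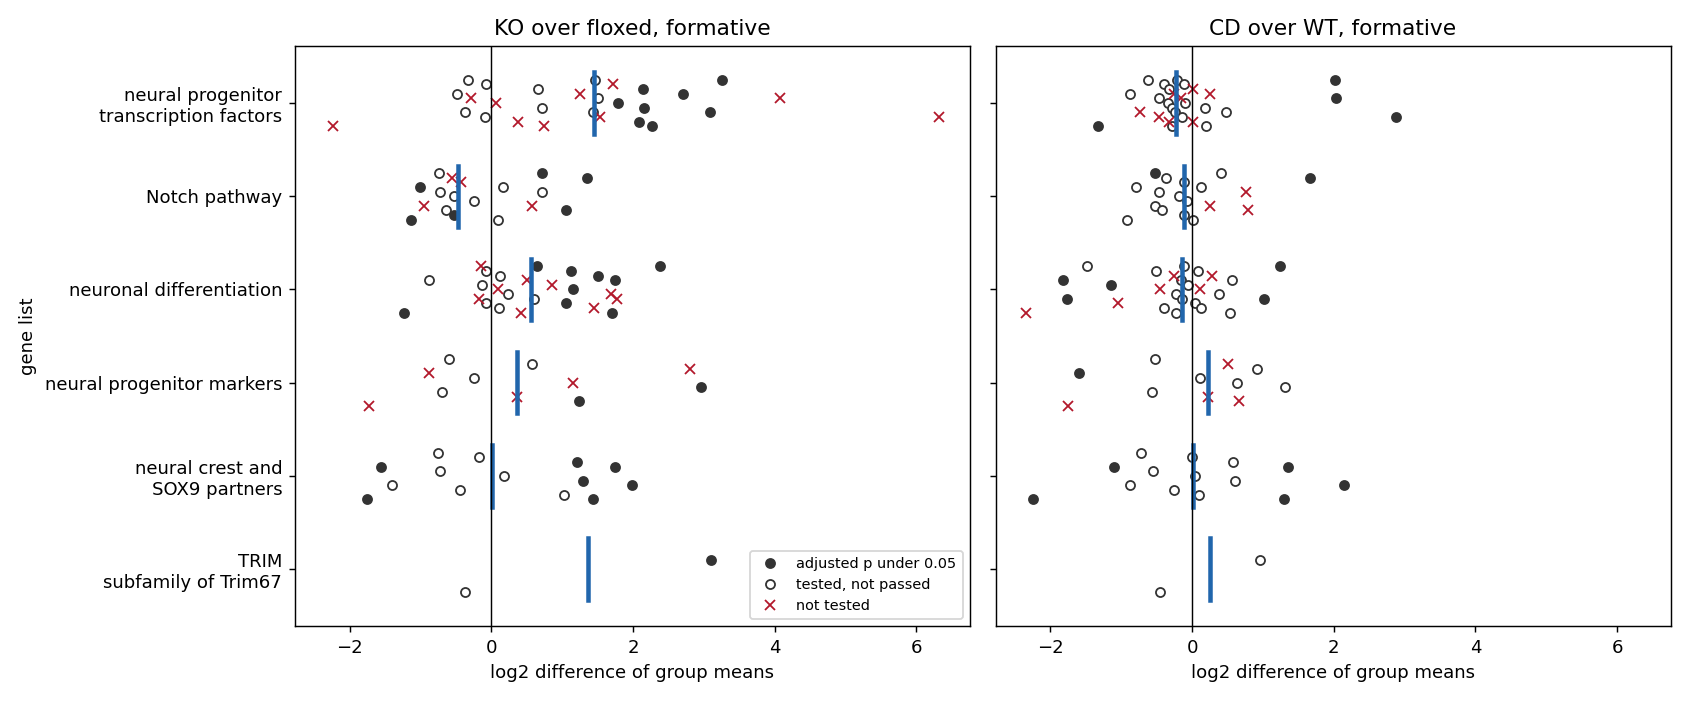
Log2 difference of group means (horizontal axis) for the measured genes of 6 neural lists (vertical axis), in formative KO minus floxed cells (left panel) and formative CD minus WT cells (right panel); each circle is a gene, filled at an adjusted p under 0.05 and open otherwise, crosses are genes with no test, and blue bars are list medians. The median of the transcription factor list lies at 1.45 on the left and -0.22 on the right.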

How the data were processed

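Per the labels' protocols, 200 ng of total RNA went into 3′ end libraries (QuantSeq FWD), read single-end for 50 bases. Per the submitters' processing notes, the tools were cutadapt 2.5, STAR with the mm10 build, and featureCounts from Subread 1.6.4, with DESeq2 1.34.0 also named. The deposited values are log2 CPM with a prior count of 2, and each is the authors' mean over the libraries of 1 group, as read from the values. No other normalization is given in the sources used here.

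Each mean was searched for the whole counts that give it, near the group mean. The 24 libraries hold 234513119 counts. Library sizes lay within 0.042 of whole numbers, 10421 genes were recovered in all groups (62.7%), and at least 99.71% of genes of up to 100 counts in each group. Abundant genes have means only. In simulated data with a log2 SD of 0.2 between libraries of a group, every recovered count was right. The simulation does not show how the search does for genes whose libraries spread more widely. The search first allowed 0.3 matches expected by chance. This was widened to 1.0 after that limit had been seen to leave Sox1 in formative KO and Trim67 in formative floxed cells without counts, and the stricter limit is an alternative added after the data were seen. The size search and the simulation's floor were revised after a first simulation.

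The 8 groups were fitted in limma 3.58.1 (R 4.3.3) with precision weights taken from a lowess curve (span 0.3) of SD against mean count, trended moderation and Benjamini-Hochberg adjustment over all genes tested. Genes needed 10 counts at the median library size in 3 libraries, unrecovered values counting as passing. Libraries were grouped by the table's columns. Alternatives were size factors, no filter, 50 counts, a prior count of 0.5, no weights, the groups of a comparison alone, the formative KO column as deposited and each library left out. The members and gene lists were chosen with earlier results of these data known. All members are named, and from each list up to 4 genes per comparison with the largest differences past the threshold, or, untested, with the largest differences of means. Results for 2 listed genes are not reported here. The genes most like Pax6, Sox1 and Zic1 are the 3 of highest Pearson r over the group means. The library taken out of the formative KO mean was identified by its size, 6919314 counts, which is that of formative CD library c; its counts were taken from the CD column, and they correlated with the CD libraries at 0.49 or more and with the KO libraries at 0.09 or less. Where its count was not recovered (no member), the CD mean stood in for it, and such KO means are called approximate. Naive WT has 2 libraries, since 6812462 counts belong to a library in no column.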

Additional observations from a re-analysis of the deposited data

Results flagged for a closer look

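By a test of the difference itself, the formative transition differed between KO and floxed cells for 4 of 8 tested genes, against 8.69% of all genes tested. Between CD and WT cells it differed for 4 of 9, against 3.19%. For KO minus floxed the difference was -4.89 ± 0.63 for Trim67 (adjusted p = 1.2e-05), -1.93 ± 0.58 for Pax6 (adjusted p = 0.0346), -1.83 ± 0.55 for Irx3 (adjusted p = 0.0367) and 0.83 ± 0.25 for Sox1 (adjusted p = 0.0319). For CD minus WT it was -3.62 ± 0.59 for Irx3 (adjusted p = 0.000712), -2.97 ± 0.65 for Trim67 (adjusted p = 0.00955), -2.73 ± 0.64 for Sox9 (adjusted p = 0.0158) and 1.14 ± 0.31 for Tubb3 (adjusted p = 0.0435). Trim67 and Irx3 were thus called, downward, in both pairs. No gene was called upward in both. Only the Trim67 difference of KO minus floxed and the Irx3 difference of CD minus WT kept their call whichever library was left out, the Irx3 value being -2.56 without naive WT library b and -4.69 without library a. Groups of 2 or 3 libraries are too small for a search for single outlying libraries.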

How the results depend on the processing

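Of the alternative values of single genes, 1362 kept their side of the threshold, 85 lost a call and 9 gained one. No called value reversed its direction. Some uncalled values changed sign over the alternatives, such as Hes5 on the KO transition (-0.12 to 0.77). Counts of called genes moved by over 1.5 times in these cases. With a prior count of 0.5, KO against floxed naive cells gave 3 genes rather than 5, KO minus floxed transitions 2 rather than 4 and CD minus WT transitions 1 rather than 4. With the groups of the comparison alone, KO against floxed naive cells gave 3, Pax6 and Zic1 having no test there and no tested gene losing its call. Floxed against WT naive cells gave 0 rather than 2 (limma, 2 at an unadjusted p under 0.05, with 5 genes tested). With the formative KO column as deposited, KO minus floxed transitions gave 1. With the stricter chance limit, added after the data were seen, they gave 2 of 6 tested, Trim67 and Sox1 having no test there. Leaving out each library in turn gave 5 to 5 genes for CD against WT formative and 2 to 4 naive, 6 to 6 for KO against floxed formative and 3 to 4 naive, 2 to 2 for floxed against WT formative and 0 to 2 naive (0 without naive WT library a, limma, with 3 at an unadjusted p under 0.05). For the transitions it gave 7 to 9 in CD, 5 to 6 in KO, 6 to 8 in WT and 6 to 7 in floxed cells, 1 to 4 for CD minus WT and 1 to 4 for KO minus floxed. A group reduced to 1 library is assumed to vary like the others. Size factors shifted the median of all genes by -0.25 for the KO, -0.15 for the floxed and -0.14 for the WT transition, by -0.15 for CD against WT naive cells and by -0.11 for KO minus floxed, and ended the calls of Sox1 in CD against WT naive cells (0.83, adjusted p = 0.0521) and in KO minus floxed (0.72, adjusted p = 0.0781). No paired analysis was possible because the columns carry no replicate numbers. Depth limits the low genes: over the libraries of a naive group Hes5 had 2 to 9 counts and Zic1 4 to 34.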
